A study of Mus musculus with 8 samples.

Results

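Bulk RNA-seq of LLC tumors was examined for 10 genes of the IL-1 and IL-6 inflammatory cytokine systems: Il1a, Il1b, Il1rn, Il1r1, Il1rl1, Il6, Il11, Lif, Osm and Ptgs2. They were chosen by name with earlier results of these data known. The Ensembl identifiers of the count table were matched to the listed mouse symbols. All 10 were found among the 55487 genes of the table, and all 10 passed the filter on low counts that left 16061 genes for testing. The samples were 4 wild-type and 4 Ago2 knock-out (ΔAgo2) tumors, 1 library each, taken at day 12 from the flank of female C57BL/6J mice bought at 6 to 8 weeks of age. LLC, the Lewis lung carcinoma line, is a mouse lung cancer line that grows in mice of its own strain. Ago2 encodes the Argonaute protein that carries microRNAs and small interfering RNAs to their target transcripts and cuts or silences them. The knock-out was made by lentiviral CRISPR-Cas9 with 1 guide, and the line engrafted in mice was 1 single-cell clone, so genotype and clone cannot be told apart. The hosts were not knock-out mice, so fibroblasts, vessels and leukocytes in every tumor kept Ago2. No tumor had a drug treatment in its labels, and all carried the same batch number.

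The 10 genes share a theme of inflammation but act at different steps. IL-1α and IL-1β, encoded by Il1a and Il1b, bind the receptor encoded by Il1r1, and the antagonist encoded by Il1rn occupies that receptor without signalling. Il1rl1 encodes ST2, the receptor for the related cytokine IL-33. IL-6, IL-11, LIF and oncostatin M (Il6, Il11, Lif and Osm) each signal through the shared chain gp130 to JAK kinases and STAT3, while Ptgs2 encodes cyclooxygenase-2, the inducible enzyme of prostaglandin synthesis that IL-1 switches on. In tumors these messengers pass between cancer cells, fibroblasts and myeloid cells. Several of the genes are neighbours in the genome (GRCm38): Il1r1 (chr1:40225080-40317257) lies beside Il1rl1 (chr1:40429570-40465415), Il1a (chr2:129299610-129309972) beside Il1b (chr2:129364570-129371139), and Osm (chr11:4236420-4241026) beside Lif (chr11:4257557-4272514).

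The transcripts of several of these genes are known to be short-lived through AU-rich letters in the 3′ untranslated region (3′UTR), and the sequences are shown for that reason. The nonamer TTATTTATT, a classical AU-rich element, occurred in the 3′UTRs of 3 of the 10 genes: 5 times in Il11, 2 times in Lif and 1 time in Ptgs2. It was present in the longest annotated 3′UTR of 7.6% of 21051 genes, and 5 or more copies were present in 0.24% of the 13069 genes whose 3′UTR length lay within the range of the 10 genes. Each copy is printed below on the transcript strand with up to 10 flanking bases on each side, the nonamer in capitals, with GRCm38 coordinates of the nonamer; the first 3 copies in Il11 overlap each other.
Il11 site 1, chr7:4773512-4773520: aaaccagatcTTATTTATTtatttatttt
Il11 site 2, chr7:4773508-4773516: cagatcttatTTATTTATTtattttggta
Il11 site 3, chr7:4773504-4773512: tcttatttatTTATTTATTttggtacttg
Il11 site 4, chr7:4773371-4773379: ttatttatacTTATTTATTtaaacaattg
Il11 site 5, chr7:4773248-4773256: acttcctacaTTATTTATTaaacgattac
Lif site 1, chr11:4272049-4272057: aaaggggcctTTATTTATTatttaaaact
Lif site 2, chr11:4272412-4272420: cagattatttTTATTTATTcaatgtcata
Ptgs2 site 1, chr1:150105800-150105808: ctgaccatatTTATTTATTtatgtgaaga

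The core pentamer ATTTA occurred in 9 of the 10 genes, from 3 copies in Il1a and Il1rl1 to 14 in Ptgs2, and was absent from Il1rn. It was held by 65.0% of all 3′UTRs, and by 79.6% of those within the length range of the 10 genes. Per kilobase, Il1b and Il11 had the most copies, 8.71 and 8.38, against a median of 1.22 over all genes.

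Since Ago2 carries microRNAs, the seed match of let-7 was searched as well. CTACCTCA, which pairs with bases 2 to 8 of let-7 and adds an A, occurred in Il1a alone among the 10, and in 3.0% of all 3′UTRs. The site is given with the 7 pairing letters in capitals. Below it are 2 of the mature microRNAs with this seed in the RefSeq table, with the seed in capitals.
Il1a site, chr2:129300231-129300237: tacatctttcCTACCTCagtgggtttt
let-7a-5p: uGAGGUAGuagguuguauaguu
miR-98-5p: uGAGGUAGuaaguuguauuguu

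Promoters from RefSeq (GRCm38.p6, 250 bases before to 50 after the start of transcription) were at hand for 9 of the 10 genes. They are shown for the 3 genes whose values did not overlap between genotypes, Il11, Lif and Il1a, and the choice was made after the values were seen. The AP-1 motif, TGACTCA on either strand, is in capitals, and reads TGAGTCA where it lies on the other strand. It occurred in 5 of the 14 promoters of these genes, 1 each of Il11, Lif, Il1a, Il1rn and Il6, and in 5.2% of the 32851 promoters in the table. Il11 has another promoter in the table, chr7:4782808-4783107, which does not hold the motif and is not printed. In the Il11 promoter that is printed the motif lay 98 bases before the start.
Il11, chr7:4778092-4778391: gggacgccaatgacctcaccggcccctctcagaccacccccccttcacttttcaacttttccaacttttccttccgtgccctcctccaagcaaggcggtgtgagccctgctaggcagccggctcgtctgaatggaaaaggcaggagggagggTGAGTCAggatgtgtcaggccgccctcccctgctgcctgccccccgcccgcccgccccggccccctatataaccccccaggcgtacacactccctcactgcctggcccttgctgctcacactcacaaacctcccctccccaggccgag
Lif, chr11:4257318-4257617: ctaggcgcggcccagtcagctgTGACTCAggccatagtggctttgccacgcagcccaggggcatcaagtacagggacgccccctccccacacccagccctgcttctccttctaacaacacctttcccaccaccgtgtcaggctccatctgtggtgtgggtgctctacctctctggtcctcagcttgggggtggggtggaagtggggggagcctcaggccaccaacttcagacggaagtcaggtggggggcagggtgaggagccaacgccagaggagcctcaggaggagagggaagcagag
Il1a, chr2:129309923-129310222: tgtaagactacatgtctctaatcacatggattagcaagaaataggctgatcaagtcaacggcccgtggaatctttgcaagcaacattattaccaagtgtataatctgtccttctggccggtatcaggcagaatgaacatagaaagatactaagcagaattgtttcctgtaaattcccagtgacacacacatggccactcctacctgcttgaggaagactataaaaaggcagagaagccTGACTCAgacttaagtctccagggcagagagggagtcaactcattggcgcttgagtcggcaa

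Library depth ran from 7903288 counts in wild-type tumor 4 to 268564145 in ΔAgo2 tumor 4, and the next deepest was ΔAgo2 tumor 2 with 106188416. Between genotypes, 560 genes passed the threshold of adjusted p under 0.05 (edgeR quasi-likelihood test, Benjamini-Hochberg over all genes tested), 219 higher and 341 lower in ΔAgo2 tumors. The Ago2 transcript was not lower in ΔAgo2 tumors (153.7 ± 28.9 CPM in wild-type and 239.5 ± 99.2 CPM in ΔAgo2 tumors, SD, n = 4 each; log2 difference 0.64, SE 0.30, edgeR adjusted p = 0.205), so the RNA does not check the knock-out label. How the host cells and the edited line share in that level was not tested. Among markers of the tumor cells, Krt8 was at 231 CPM or more in every tumor, Epcam was between 0.736 and 4.36 CPM, and the lung lineage marker Nkx2-1 had no counts in any of the 8. Across genes the log2 difference fell with GC content (Spearman −0.561 over the genes fitted, which are not independent replicates). Results of a fit with each library's GC trend removed are given beside some single genes where they differ in call, direction or size. That fit was not examined for the genes added under Other observations.

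Of the 10 genes, 2 differed between genotypes. Il11 was lower and Il1a was higher in ΔAgo2 tumors, against 2.12% and 1.36% of all genes tested that were called lower and higher, and 3.49% called in either direction. In 3 of the 10, Il11, Lif and Il1a, the 4 values of one genotype lay apart from the 4 of the other, as they did in 16.4% of all genes tested. The median log2 difference of the 10 was −0.45, with 4 positive and 6 negative, beside 0.04 over all genes.

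**Figure D1:**
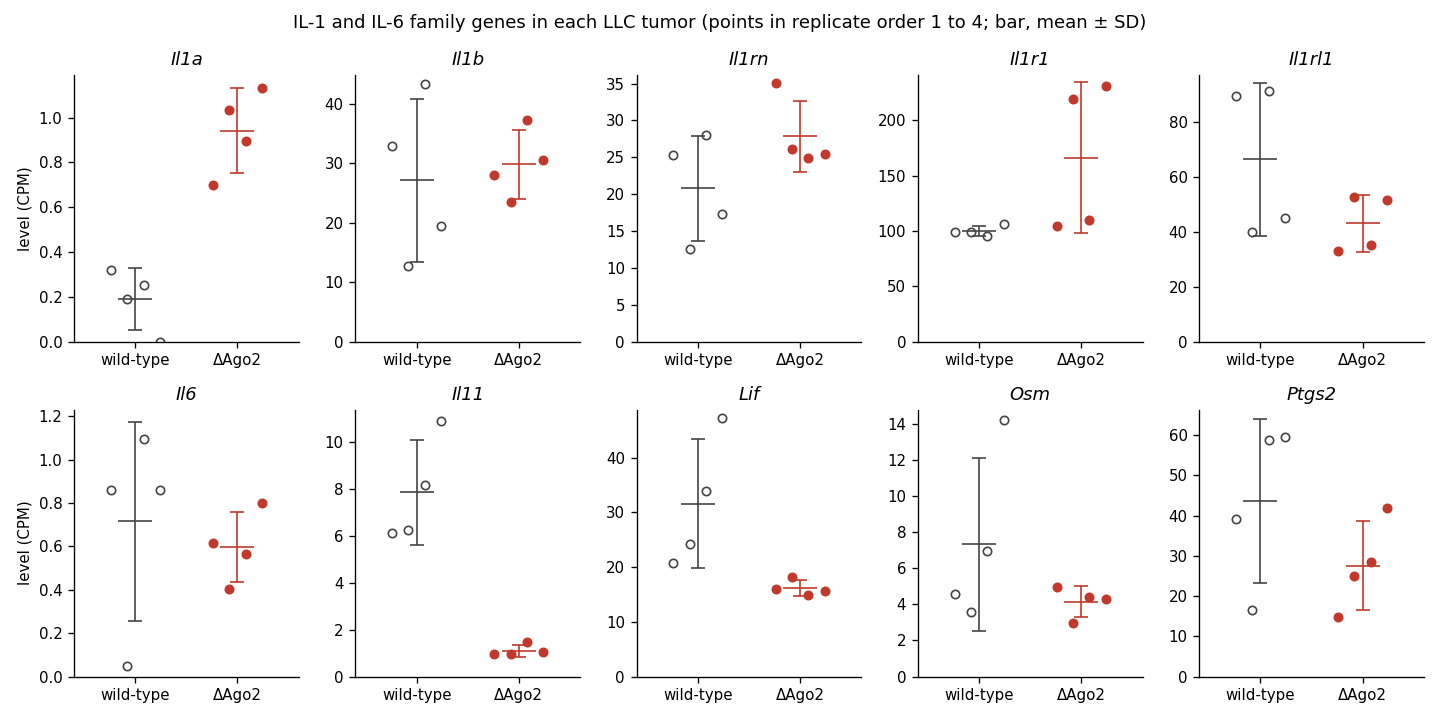
Level of each of the 10 genes in counts per 1000000 (CPM, linear axes from 0) in every tumor, wild-type as open grey and ΔAgo2 as filled red points, with bars for mean ± SD of 4 tumors. Il11 and Lif sat lower and Il1a higher in all 4 ΔAgo2 tumors, while the groups overlapped in the other 7 genes.

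IL-1α, the IL-1 ligand that is kept inside cells and released on damage, was encoded by a transcript of very low level. Il1a had 17, 4, 12 and 0 counts in wild-type tumors 1 to 4, which is 0.319, 0.191, 0.252 and 0 CPM (counts per 1000000, with TMM scaling), and 34, 118, 30 and 324 counts in ΔAgo2 tumors 1 to 4, which is 0.698, 1.03, 0.896 and 1.13 CPM. Every ΔAgo2 tumor was above every wild-type tumor, but the 0 came from the shallowest library, where a count of 0 allows up to 0.430 CPM. The gene passed the filter on low counts only through its ΔAgo2 libraries, where it was higher. Il1a rose by 2.04 on the log2 scale (SE 0.49, 95% confidence interval 0.95 to 3.13, edgeR adjusted p = 0.0492). This call was marginal: the direction was the same in 20 of 20 other fits, but the gene was past the threshold in 5 of them (the other 2 alternatives dropped it for low counts), and of the 8 fits that left out 1 library only the one without ΔAgo2 tumor 1 kept it there. With the GC trend removed the difference was 1.47 (adjusted p = 0.0868), and over the 20 fits the adjusted p ran from 0.00129 to 0.213. The exons of Il1a overlap those of the antisense gene Gm14023, which had 0.328 ± 0.168 CPM in wild-type and 0.277 ± 0.116 CPM in ΔAgo2 tumors (SD, n = 4 each; edgeR adjusted p = 0.730). The kit kept strand, but whether the counting used it was not given in the sources used here, and without strand reads of the overlap cannot be assigned to either gene.

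Keratinocytes of the overlying skin are a known source of IL-1α. The summed level of 8 keratinocyte markers ranged from 14.7 to 579 CPM in wild-type and from 443 to 867 CPM in ΔAgo2 tumors. All 8 markers had positive log2 differences, beside 8427 of all 16061 genes tested. Of the 8, 1 was called higher, beside 1.36% of all genes tested. Wild-type tumors 1 to 4 had keratinocyte sums of 549.8, 579, 14.7 and 175 CPM beside the Il1a values given above, and in ΔAgo2 tumors 1 to 4 the sums were 490.0, 443, 867 and 865 CPM. Wild-type tumors 1 and 2 had sums above those of ΔAgo2 tumors 1 and 2 and lower Il1a, while wild-type tumor 4, with no Il1a count, had the second lowest sum. The part of these cells in the Il1a difference was not tested.

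Il1b, the secreted IL-1 ligand made chiefly by myeloid cells, had 32.9, 12.8, 43.3 and 19.5 CPM in the wild-type tumors, in their order from 1 to 4, and 28.0, 23.5, 37.3 and 30.5 CPM in the ΔAgo2 tumors. The ΔAgo2 values lay inside the wild-type range. The log2 difference was 0.13 (SE 0.34, 95% confidence interval −0.63 to 0.89, edgeR adjusted p = 0.830), so the values of these tumors are compatible with a difference of either sign within that interval. With the GC trend removed the log2 difference was −0.16. Summed neutrophil markers (25.3 to 64.5 CPM in wild-type, 42.5 to 70.3 CPM in ΔAgo2) and summed macrophage and monocyte markers (1800 to 2280 and 1620 to 3260 CPM) overlapped between genotypes too. The antisense gene Il1bos, whose exons overlap those of Il1b, was far below it, at 0.0439 CPM on average in wild-type and 0.0838 CPM in ΔAgo2 tumors.

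Il1rn, which encodes the IL-1 receptor antagonist, was measured at 25.3, 12.5, 28.0 and 17.3 CPM in wild-type and at 35.1, 26.1, 24.9 and 25.5 CPM in ΔAgo2 tumors. ΔAgo2 tumor 1 was the highest of all 8, and the groups overlapped. Its log2 difference was 0.42 (SE 0.27, edgeR adjusted p = 0.335), and −0.22 with the GC trend removed. Within a library, Il1rn had 0.646 to 0.981 counts for each count of Il1b in wild-type tumors and 0.666 to 1.25 in ΔAgo2 tumors. The ratio of antagonist to ligand counts thus spanned overlapping ranges in the 2 genotypes, and it does not depend on library scaling. These counts were not corrected for length, and the exons cover 5535 bases in Il1rn and 1907 in Il1b. The ratio therefore serves to compare genotypes and does not give antagonist transcripts per ligand transcript. For Il1a the same ratio to Il1b was at most 0.0149 in wild-type and 0.0240 to 0.0441 in ΔAgo2 tumors.

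Il1r1, the signalling receptor for both IL-1 ligands, was the member with the steadiest wild-type level, 99.3, 99.1, 95.5 and 106.2 CPM. The ΔAgo2 tumors fell into a lower and a higher pair, with 105 and 110.4 CPM in numbers 1 and 3 and 219 and 231 CPM in numbers 2 and 4, and ΔAgo2 tumor 1 lay within the wild-type range. Numbers 2 and 4 were also the 2 deepest libraries. The log2 difference was 0.73 (SE 0.28, edgeR adjusted p = 0.132), and it was 0.04 (adjusted p = 0.957) with the GC trend removed. Over 22 other fits the adjusted p ran from 0.0348 to 0.957, with Il1r1 past the threshold in 2, limma voom and the fit without ΔAgo2 tumor 1.

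Il1rl1, which encodes the IL-33 receptor ST2 and its soluble decoy form, stood at 89.7, 40.0, 91.4 and 45.2 CPM in wild-type and at 33.2, 52.8, 35.3 and 51.7 CPM in ΔAgo2 tumors. Wild-type tumors 1 and 3 were high and the other 6 tumors overlapped. The difference of −0.62 on the log2 scale (SE 0.31) did not pass the threshold (edgeR adjusted p = 0.219). With the GC trend removed it was −1.18 and did pass (adjusted p = 0.00343), so the call for this gene depends on that choice. Il1rl1 was past the threshold in 3 of 22 other fits, whose adjusted p ran from 0.00343 to 0.711. Mast cells carry ST2, and the sum of 8 mast cell and basophil markers was 113 to 191 CPM in wild-type and 27.0 to 193 CPM in ΔAgo2 tumors, with none of the 8 called. Its part in the Il1rl1 values was not tested.

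Among the ligands of gp130, Il11 had the lowest p of the 10 genes. IL-11 is a cytokine of fibroblasts and epithelial cells known for its part in fibrosis. Wild-type tumors 1 to 4 held 327, 131, 388 and 76 counts of Il11, or 6.13, 6.25, 8.16 and 10.9 CPM, and ΔAgo2 tumors 1 to 4 held 46, 109, 49 and 296 counts, or 0.944, 0.956, 1.46 and 1.04 CPM. The lowest wild-type tumor was far above the highest ΔAgo2 tumor, and the ΔAgo2 tumors differed little from each other. Il11 was 7.13-fold higher in wild-type tumors (log2 difference −2.83, SE 0.32, 95% confidence interval −3.54 to −2.13, edgeR adjusted p = 0.00215), and ranked 17 of 16061 genes by p. It was past the threshold in 22 of 22 other fits, with log2 differences from −2.99 to −2.03, including all 8 that left out 1 library and the fit on counts thinned to the depth of the shallowest library. In bulk tumor RNA, fewer cells that make a transcript and less of it per cell cannot be told apart.

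Fibroblast markers in sum, like Il11, were lower in ΔAgo2 tumors. The summed level of 9 such markers, most of it Col3a1, was 4910 to 7250 CPM in wild-type and 2290 to 4620 CPM in ΔAgo2 tumors, with no overlap. Their median log2 difference was −0.64, and none was at 0 in any tumor. Of the 9, 1 was called lower, beside 2.12% of all genes tested. A positive difference was found in 2 of the 9, beside 8427 of all 16061 genes tested. The 2 were Pdgfra and Dcn. Skeletal muscle markers were also apart between genotypes: the sum of 10 of them was 289 to 4129 CPM in wild-type and 55.7 to 238 CPM in ΔAgo2 tumors, with a median log2 difference of −3.15, none positive, none called and none at 0. The part of either cell type in the Il11 difference was not tested. The mean fibroblast sum was 1.63-fold higher in wild-type tumors. Per 1000 CPM of the fibroblast sum, a scale chosen after the markers were seen, Il11 was 1.25, 0.861, 1.13 and 1.83 CPM in wild-type and 0.413, 0.212, 0.353 and 0.224 CPM in ΔAgo2 tumors. The 2 genotypes lay apart on this scale as well. For Lif, the same scale gave 3.35 to 7.93 CPM in wild-type and 3.39 to 6.98 CPM in ΔAgo2 tumors, which overlapped.

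**Figure D2:**
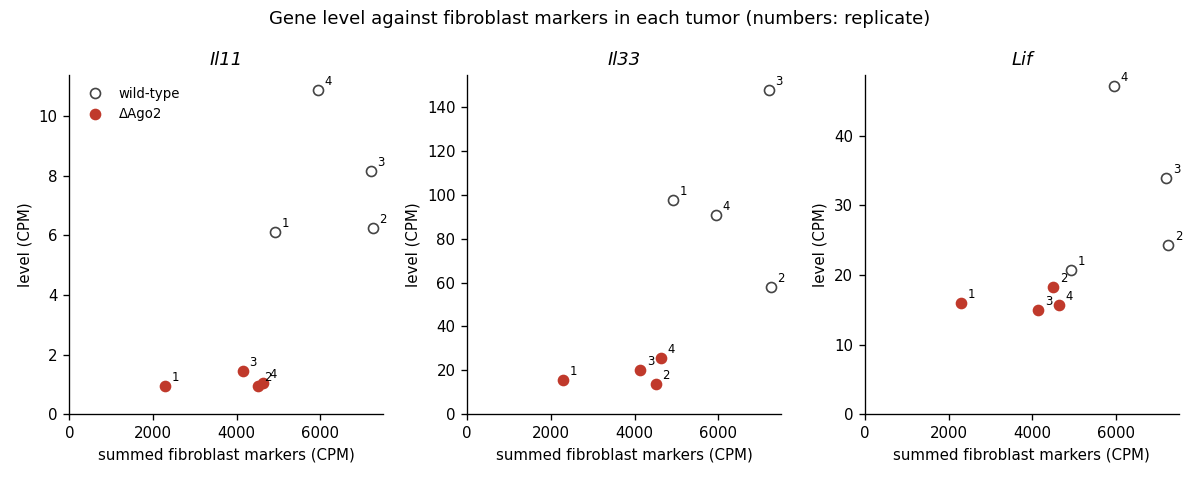
Level of Il11, Il33 and Lif (CPM) against the summed level of 9 fibroblast markers (CPM) in each tumor, numbered by replicate, open grey for wild-type and filled red for ΔAgo2. The highest marker sum of the ΔAgo2 tumors was 4620 CPM, in tumor 4, with 1.04 CPM of Il11. The lowest of the wild-type tumors was 4910 CPM, in tumor 1, with 6.13 CPM of Il11. The part of fibroblasts in the differences of these genes was not tested.

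Lif encodes leukemia inhibitory factor, which like IL-11 acts through gp130 but with the LIF receptor as its partner chain. It was measured at 20.8, 24.3, 34.0 and 47.2 CPM in wild-type and at 16.0, 18.2, 15.0 and 15.7 CPM in ΔAgo2 tumors. All 4 ΔAgo2 tumors were below the lowest wild-type tumor, by a small margin against wild-type tumor 1. The log2 difference of −0.95 (SE 0.27, 95% confidence interval −1.54 to −0.37) did not pass after adjustment (edgeR adjusted p = 0.0708). In other fits it was negative in 22 of 22 and past the threshold in 4, the DESeq2 Wald test, limma voom, the thinned counts and the fit without wild-type tumor 1.

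Il6 was close to the limit of what these libraries can measure. It had 46, 1, 52 and 6 counts in wild-type and 30, 46, 19 and 228 counts in ΔAgo2 tumors, or 0.862, 0.0477, 1.09 and 0.860 CPM against 0.616, 0.404, 0.567 and 0.798 CPM. The groups overlapped, and wild-type tumor 2 held the lowest value. A log2 difference of −0.27 was fitted, with an interval from −1.63 to 1.08 (edgeR adjusted p = 0.798), which spans both directions, and with the GC trend removed it was −0.90 (adjusted p = 0.426). In each library Il11 outnumbered Il6: by 7.11 to 131 counts per count of Il6 in wild-type tumors, the upper end resting on a single Il6 count, and by 1.30 to 2.58 in ΔAgo2 tumors. For Lif the ratio to Il6 was 24.1 to 510.0 in wild-type and 19.6 to 45.2 in ΔAgo2 tumors, which overlapped.

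Osm encodes oncostatin M, a gp130 ligand of neutrophils and macrophages that acts on stromal cells. Its values were 4.57, 3.58, 6.96 and 14.2 CPM in wild-type and 4.95, 2.94, 4.42 and 4.31 CPM in ΔAgo2 tumors. Wild-type tumor 4, the shallowest library, was above the rest and the other 7 overlapped. For Osm the difference came to −0.79 (SE 0.42, edgeR adjusted p = 0.243) and to −0.27 without wild-type tumor 4.

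Ptgs2 stood at 39.2, 16.5, 58.9 and 59.6 CPM in wild-type and at 14.9, 24.9, 28.6 and 41.8 CPM in ΔAgo2 tumors. The lowest values of the groups were close to each other and 3 of 4 ΔAgo2 tumors lay within the wild-type range. Ptgs2 differed by −0.66 on the log2 scale (SE 0.41, edgeR adjusted p = 0.312), and −1.60 with the GC trend removed, which did not pass either (adjusted p = 0.0756). Over 22 other fits the adjusted p ran from 0.0306 to 0.724, past the threshold in 1, the GC correction joined to the replicate number.

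**Figure D3:**
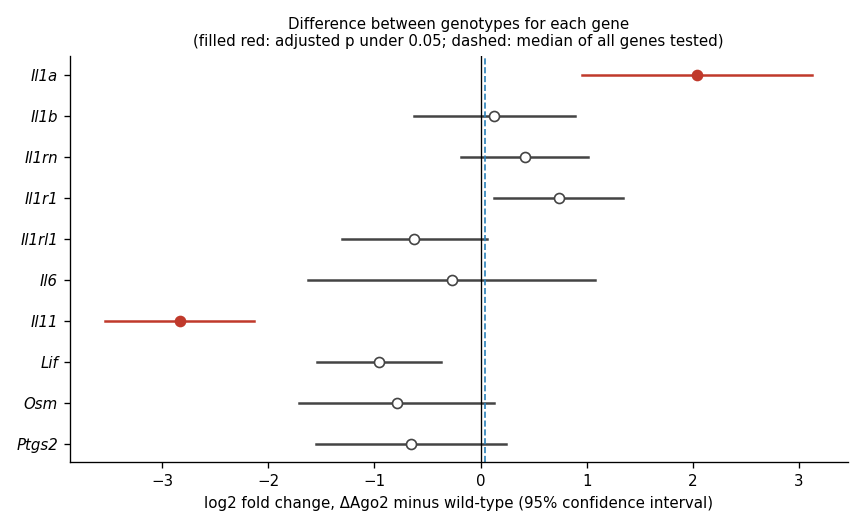
Log2 difference, ΔAgo2 minus wild-type, for each gene with its 95% confidence interval; filled red marks an adjusted p under 0.05 and the dashed line the median over all genes tested. Only the intervals of Il1a, Il1r1, Il11 and Lif lay off 0, with Il11 at −2.83 and Il1a at 2.04, and only Il1a and Il11 passed after adjustment.

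Levels could be compared between genes per transcript length, in transcripts per 1000000 (TPM). In wild-type tumors the order from high to low was Il1r1 (41.4 ± 5.23 TPM, SD, n = 4), Il1b (38.6 ± 22.6), Il1rl1 (26.2 ± 13.2), Ptgs2 (24.5 ± 11.0), Lif (18.5 ± 4.39), Il1rn (10.1 ± 4.33), Il11 (9.70 ± 1.45), Osm (7.91 ± 3.62), Il6 (0.770 ± 0.531) and Il1a (0.278 ± 0.199). In this order the values of neighbours overlapped except between Osm and Il6. In ΔAgo2 tumors Il1r1 (85.1 ± 46.4 TPM, SD, n = 4), Il1b (48.3 ± 12.7), Il1rl1 (20.1 ± 8.13) and Ptgs2 (19.4 ± 9.76) again came first, then Il1rn (15.2 ± 1.55), Lif (11.6 ± 3.04), Osm (5.52 ± 0.892), Il11 (1.65 ± 0.504), Il1a (1.52 ± 0.548) and Il6 (0.758 ± 0.253). Here the ranges were apart between Il1b and Il1rl1, between Lif and Osm, and between Osm and Il11. Il11 thus ranked above Osm in wild-type and below it in ΔAgo2 tumors.

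The partners of these genes were read from 8 lists, also chosen with earlier results of these data known. The lists held 121 genes in all, of which 114 were tested. Of those, 3 were called higher and 5 lower in ΔAgo2 tumors, against 1.36% and 2.12% of all genes tested and 3.49% in either direction. Of the 114, 62 had negative log2 differences, beside 7634 of all 16061 genes tested, and the median was −0.04, beside 0.04 over all genes. In 24 of the 114 the genotypes did not overlap, against the 16.4% of all genes given above. The members of the lists are described in the order of the pathway.

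IL-33, the ligand of ST2 and an alarmin held in the nuclei of stromal and epithelial cells, fell. Il33 stood at 97.7, 58.1, 148.0 and 90.7 CPM in wild-type and at 15.7, 14.0, 20.2 and 25.7 CPM in ΔAgo2 tumors, with no overlap. On the log2 scale the difference was −2.39 (SE 0.31, edgeR adjusted p = 0.00342), and Il33 was past the threshold in 21 of 22 other fits. With the GC trend removed it was −3.03. Per 1000 CPM of fibroblast markers it was 8.01 to 20.5 CPM in wild-type and 3.11 to 6.85 CPM in ΔAgo2 tumors, still apart. In the fit reported here Il33 thus passed the threshold and its receptor gene Il1rl1 did not. With the GC trend removed both passed, and both were lower in ΔAgo2 tumors (Il1rl1 −1.18, edgeR adjusted p = 0.00343). Whether the differences of ligand and receptor are unequal was not tested.

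Il33 was the single gene called among the 13 tested of 15 IL-1 family ligands, antagonists and processing genes, against 3.49% of all genes tested. Of those 13, 10 had positive log2 differences, beside 8427 of all 16061 genes tested, and the median of the 13 was 0.69. Il36a and Il36b, counted among the 10, passed the filter on low counts only through their ΔAgo2 libraries, where they were higher. Il18, the other IL-1 family cytokine processed by caspase-1, was at 3.80 ± 2.68 CPM in wild-type and 6.34 ± 1.53 CPM in ΔAgo2 tumors (SD, n = 4 each; edgeR adjusted p = 0.361). Among the 17 receptors and signalling genes of the IL-1 family none was called and their median was 0.18. An unadjusted p under 0.05 was found for 4 of the 17, and for 4281 of all 16061 genes tested (26.7%). Il1rap, the accessory chain shared by the IL-1 and IL-33 receptors, had 28.5, 16.6, 27.5 and 11.5 CPM in wild-type and 18.3, 46.0, 23.9 and 43.2 CPM in ΔAgo2 tumors, which overlapped (log2 difference 0.64, SE 0.37, edgeR adjusted p = 0.281, and −0.05 with the GC trend removed).

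Of 16 tested gp130 receptors and signalling genes, 1 was called, against 3.49% of all genes tested. It was Cntfr, the binding chain for ciliary neurotrophic factor. Cntfr passed the filter on low counts only through its wild-type libraries, where it was higher, and its call carries that limit. It was low throughout, 0.450, 0.811, 0.757 and 0.287 CPM in wild-type and 0.103, 0.140, 0.239 and 0.172 CPM in ΔAgo2 tumors, without overlap (log2 difference −1.90, SE 0.46, edgeR adjusted p = 0.0492). That call was kept in 1 of the 8 fits that left out 1 library, the one without ΔAgo2 tumor 1, and was lost with the GC trend removed (−1.47, adjusted p = 0.118). Il6st, which encodes gp130 itself, was at 129.8 ± 27.4 CPM in wild-type and 187.8 ± 57.3 CPM in ΔAgo2 tumors (SD, n = 4 each; edgeR adjusted p = 0.225), and its log2 difference went from 0.53 to 0.23 when the GC trend was removed.

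The chains that give each ligand its target cell did not pass either. Il6ra, the IL-6 receptor, had 44.1, 58.9, 36.2 and 42.9 CPM in wild-type and 59.0, 112.3, 69.0 and 97.6 CPM in ΔAgo2 tumors. The groups did not overlap, though wild-type tumor 2 and ΔAgo2 tumor 1 were almost level, and the log2 difference of 0.89 (SE 0.25) had an edgeR adjusted p of 0.0713. Il11ra1, the IL-11 receptor, was at 21.4, 38.0, 34.2 and 75.1 CPM in wild-type and at 41.0, 9.16, 12.8 and 13.0 CPM in ΔAgo2 tumors, with ΔAgo2 tumor 1 inside the wild-type range (log2 difference −1.14, SE 0.50, edgeR adjusted p = 0.177). It was −1.85 without ΔAgo2 tumor 1 and −0.70 without wild-type tumor 4, and was past the threshold in 2 of 22 other fits, limma voom and the former of these. Lifr and Osmr, the receptors for LIF and oncostatin M, had log2 differences of 0.16 (SE 0.38, edgeR adjusted p = 0.805) and −0.17 (SE 0.31, edgeR adjusted p = 0.752), which were −0.31 and −0.54 with the GC trend removed.

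Downstream of gp130, Socs3, the feedback inhibitor induced by STAT3, stood at 119.8, 160.8, 131.0 and 231.5 CPM in wild-type and at 86.2, 82.5, 99.8 and 100.2 CPM in ΔAgo2 tumors. All ΔAgo2 tumors were lower, with a log2 difference of −0.80 (SE 0.23) that did not pass after adjustment (edgeR adjusted p = 0.0770), and was −0.32 with the GC trend removed. None of 16 target genes of gp130 and STAT3 was called, and 6 had an unadjusted p under 0.05 beside the 26.7% of all genes. Negative log2 differences were found in 12 of 16, beside 7634 of all 16061 genes tested, and the median was −0.44. Their differences with the GC trend removed were not examined, and STAT3 activity was not tested. None of the 6 other gp130 ligands tested was called, 3 had an unadjusted p under 0.05 against the same 26.7%, and the median was −0.39. Of the 3, Ctf1 and Clcf1 were lower and Cntf higher in ΔAgo2 tumors (log2 differences −0.99, −0.71 and 1.28). Cntf passed the filter on low counts only through its ΔAgo2 libraries, where it was higher.

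In the prostanoid list 1 of 17 tested genes was called, against 3.49% of all genes tested. That gene was Ptgis, the synthase of prostacyclin. It had 3.09, 6.82, 10.2 and 6.31 CPM in wild-type and 2.83, 0.921, 1.34 and 1.36 CPM in ΔAgo2 tumors, apart by a small margin between wild-type tumor 1 and ΔAgo2 tumor 1. The log2 difference was −2.04 (SE 0.45, edgeR adjusted p = 0.0388), and the call was kept in 3 of 8 fits that left out 1 library, those without wild-type tumor 1, wild-type tumor 3 or ΔAgo2 tumor 1. Ptges, the synthase that turns the product of cyclooxygenase-2 into prostaglandin E2, stood at 366.2 ± 56.5 CPM in wild-type and 376.6 ± 30.1 CPM in ΔAgo2 tumors (SD, n = 4 each; edgeR adjusted p = 0.906).

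Of 18 tested genes known to respond to IL-1 and TNF, 1 rose and 2 fell, against 1.36% and 2.12% of all genes tested. Mmp3, which encodes the matrix protease stromelysin-1, stood at 292.0, 140.0, 318.9 and 205.5 CPM in wild-type and at 70.6, 25.7, 36.9 and 38.5 CPM in ΔAgo2 tumors, with no overlap. It fell by 2.48 on the log2 scale (SE 0.36, edgeR adjusted p = 0.00643) and was past the threshold in 22 of 22 other fits. Csf3, the gene of the granulocyte growth factor G-CSF, had 2.21, 1.72, 6.45 and 13.9 CPM in wild-type and 0.431, 0.597, 0.746 and 0.767 CPM in ΔAgo2 tumors, a difference of −3.21 (SE 0.64, edgeR adjusted p = 0.0272) that was past the threshold in 5 of 8 fits with 1 library left out and lost without ΔAgo2 tumor 2, 3 or 4. Mmp13, a collagenase, went the other way, with 8.88, 4.53, 7.25 and 6.02 CPM in wild-type and 14.5, 15.3, 17.4 and 17.8 CPM in ΔAgo2 tumors.

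Mmp13 rose by 1.28 on the log2 scale (SE 0.25, edgeR adjusted p = 0.0256), and the call was kept in 3 of 8 fits with 1 library left out, those without wild-type tumor 1, wild-type tumor 3 or ΔAgo2 tumor 1. With the GC trend removed the call was lost (0.60, adjusted p = 0.177). In 3 of the 18 genes the genotypes did not overlap, against 16.4% of all genes tested. These were the 3 genes called, picked on the same values, so their separation adds no further support. The 2 that fell had the larger differences. Over the list 12 of 18 log2 differences were negative, beside 7634 of all 16061 genes tested, and the median of the list was −0.25.

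**Figure D4:**
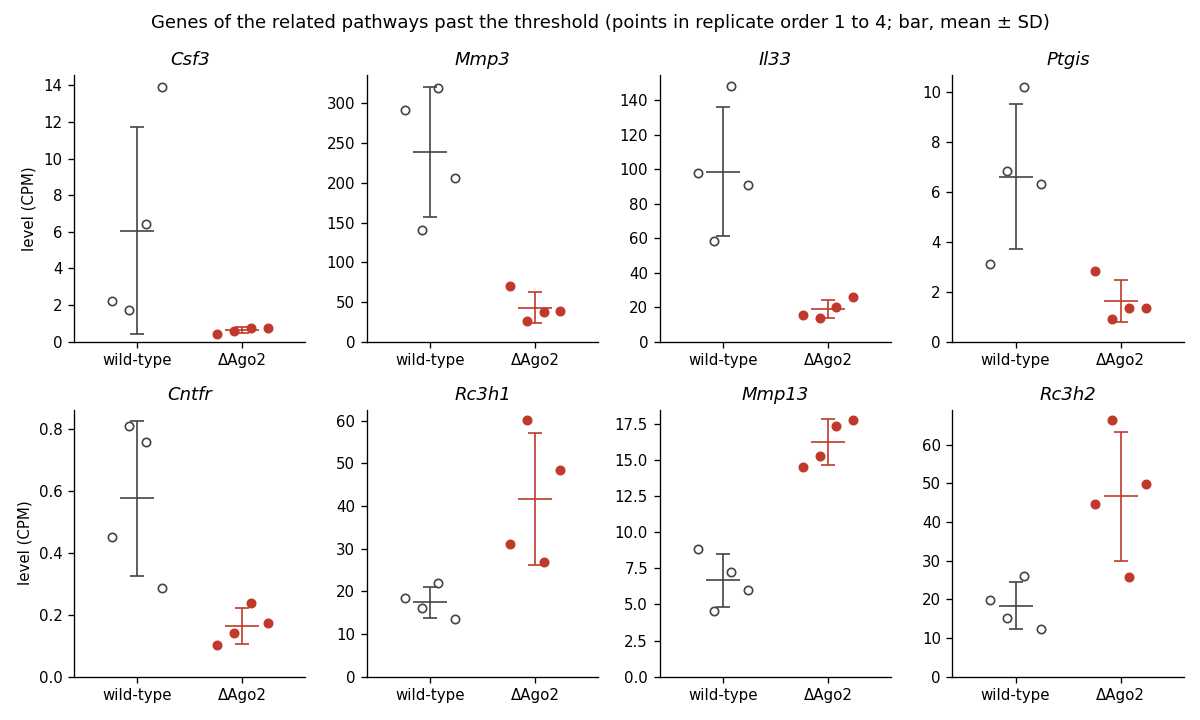
Levels (CPM, linear axes from 0) in each tumor of the 8 genes of the related lists that passed the threshold, open grey for wild-type and filled red for ΔAgo2, with bars for mean ± SD of 4 tumors. Csf3, Mmp3, Il33, Ptgis and Cntfr were lower and Rc3h1, Mmp13 and Rc3h2 higher in ΔAgo2 tumors, and the 2 groups of Rc3h2 overlapped at 25.7 and 26.1 CPM.

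The last list held genes linked to the handling of transcripts with AU-rich or stem-loop letters, not all of which bind them or hasten their decay. In it 2 of 11 genes were called, against 3.49% of all genes tested. Rc3h1 and Rc3h2 encode Roquin-1 and Roquin-2, which bind stem-loops in the 3′UTRs of cytokine transcripts. Rc3h1 stood at 18.4, 16.0, 22.0 and 13.5 CPM in wild-type and at 31.0, 60.3, 26.8 and 48.4 CPM in ΔAgo2 tumors, a rise of 1.25 (log2, SE 0.29, edgeR adjusted p = 0.0444). Its call was kept in 2 of 8 fits with 1 library left out, those without wild-type tumor 3 or ΔAgo2 tumor 1. Rc3h2 stood at 19.8, 15.1, 26.1 and 12.2 CPM in wild-type and at 44.6, 66.3, 25.7 and 49.7 CPM in ΔAgo2 tumors, and rose by 1.34 (log2, SE 0.32, edgeR adjusted p = 0.0486). It was kept in 3 of those 8, without wild-type tumor 3, ΔAgo2 tumor 1 or ΔAgo2 tumor 3. ΔAgo2 tumors 2 and 4, the deepest libraries, were the highest of the 8 for both genes, as they were for Il1r1. With the GC trend removed neither of the pair was called.

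For each gene with a mean of at least 1 CPM, the genes with the most similar profile, up to 3 each, were sought among 13065 genes, by Pearson r of log2 CPM over the 8 tumors. The values describe likeness only, since the tumors fall into 2 genotypes and share libraries. Ptgs2 was nearest to Cxcr2, the neutrophil receptor for CXC chemokines (r = 0.965), then F5 and Nrn1. Il11 was nearest to Pax9 (r = 0.992) and P2ry2, Lif to Rrs1 (r = 0.986), Btg3 and Dlx1, and Osm to Meox1 (r = 0.991), Cyb561 and Ier3. Il1b was nearest to Eef1akmt2 (r = 0.962), Btbd1 and Pygl, and Il1rn to Pbk (r = 0.996), Uchl3 and Brix1. Il1r1 was nearest to Zbtb11 (r = 0.972), Atxn7 and Ino80d, and Il1rl1 to Zc4h2 (r = 0.977), Cavin2 and Gm43719.

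**Figure D5:**
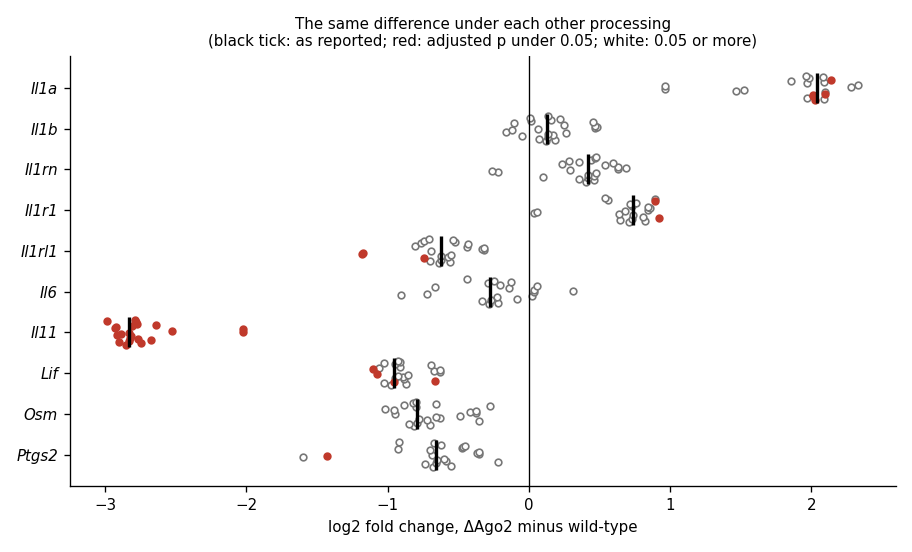
Log2 difference, ΔAgo2 minus wild-type, of each gene as reported (black tick) and in every other fit tried (points, red where the adjusted p was under 0.05). Il11 stayed between −2.99 and −2.03 and red throughout, Il1a was red in 5 of 20 points and Lif in 4 of 22, and the points of Il1b, Il1rn and Il6 fell on both sides of 0.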

How the data were processed

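RNA was measured in 8 LLC tumors, 4 per genotype, with polyadenylated libraries of a stranded kit read as pairs. The authors deposited a table of raw gene counts and a table of TPM values, both with Ensembl identifiers; the submitters' processing notes name STAR and the mm10 build, while the counter's settings for these tumors, strand included, were not given in the sources used here. Symbols and 3′UTRs came from GENCODE M21, whose versioned identifiers matched 99.29% of the table. From the deposited counts, TMM factors and CPM were computed, genes were filtered with filterByExpr (minimum count 10), and genotypes were compared with the edgeR quasi-likelihood test (edgeR 4.0.16, R 4.3.3; genotype as sole term, Benjamini-Hochberg over all 16061 genes tested, threshold 0.05). Fold changes are log2 with SE. Replicates are separate tumors by their labels, and p-values measure the spread between them. Depth of 7903288 to 268564145 counts per library sets the precision, and the floor of 3 counts covers counting error only. The deposited TPM served to order genes and, as log2(TPM + 1) and log2(TPM + 0.1), for limma 3.58.1.

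The 10 genes and the 8 partner lists were chosen with earlier results of these data known. The text names the 10 genes, Ago2, partner genes past the threshold (up to 3 per list), 10 partners fixed by name (Il1rap, Il6st, Il6ra, Il11ra1, Lifr, Osmr, Il18, Il33, Ptges, Socs3) and the 3 nearest genes of each member, of which 1 is not reported here; Gm14023, Il1bos and tumor cell markers were added after their values were seen. Il36a, Il36b and Il36g were matched through RefSeq synonyms, and Il36rn was not matched. Cntf, Ctf1 and Clcf1 were also added after their values were seen. Alternatives were other scalings, DESeq2 1.42.0, limma voom, other filters, a GC correction, thinning, TPM, the replicate number as a block and leaving out each library. The scripts were tested on simulated data.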

Additional observations from a re-analysis of the deposited data

Results flagged for a closer look

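Within each genotype, a library was listed where its gap to the nearest of the other 3 divided by the group's range exceeded Dixon's 95% critical value for 4 samples. Of 85 groups of 4 values examined 6 were listed, where chance lists about 1 in 20, or 4.2 here. Among the 10 genes this was Il1rn in ΔAgo2 tumor 1, with 35.1 CPM against 24.9 to 26.1 CPM in the other 3. Il11ra1, the IL-11 receptor, was at 41.0 CPM in the same tumor against 9.16 to 13.0 CPM in the others.

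The other 4 were sums of cell type markers. ΔAgo2 tumor 1 had 359 CPM of adipocyte markers where its group otherwise spanned 10.5 to 38.4 CPM, and 36.7 CPM of regulatory T and type 2 lymphoid markers against 27.6 to 29.0 CPM. Wild-type tumor 3 had 202 CPM of adipocyte markers against 21.1 to 40.6 CPM, and 4129 CPM of skeletal muscle markers against 289 to 557 CPM. No explanation for these values was tested. Without ΔAgo2 tumor 1, 3 of the 10 genes and 16 partner genes were called; without wild-type tumor 3, 1 and 9.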

How the results depend on the processing

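Il11 kept its direction and its call under all 22 alternatives. Of the 10 genes, 2 were called as reported (1 higher, 1 lower), and 1 to 3 (0 to 2 higher, 1 to 2 lower) when each library was left out in turn. One was called, 1 lower and 0 higher, with total counts, upper quartile scaling, the replicate block, any TPM fit, or a minimum of 10 counts in each library. Limma voom called 5 (2 higher, 3 lower), the DESeq2 Wald test 3 (2 lower), the GC correction 2 (0 higher, 2 lower), the block with GC correction 3 (0 higher, 3 lower) and thinned counts 2 (0 higher, 2 lower).

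Of the partner genes 8 were called (3 higher, 5 lower), and 2 to 16 (0 to 7 higher, 2 to 9 lower) without 1 library. Total counts gave 5 (1 higher), DESeq2 24 (13 higher, 11 lower), voom 36 (18 higher, 18 lower), no filter 10 (5 higher), the GC correction 5 (0 higher), block and GC 3 (0 higher, 3 lower), thinning 4 (0 higher), and the TPM fits 2 (0 higher, 2 lower) with the filter at either pseudocount and 1 (0 higher, 1 lower) without it.

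Over all genes 560 were called (219 higher, 341 lower), and 88 to 1793 (20 to 979 higher, 68 to 814 lower) without 1 library. DESeq2 called 2265 (1129 higher, 1136 lower), voom 4476 (2393 higher, 2083 lower), no filter 983 (515 higher), block and GC 307 (98 higher, 209 lower), log2(TPM + 1) 153 (77 higher, 76 lower), log2(TPM + 0.1) 107 (41 higher, 66 lower) and log2(TPM + 1) without filter 77 (33 higher, 44 lower). The median log2 difference of all genes moved by over 0.1 with DESeq2 (−0.15), no filter (0.16), the GC correction (−0.10, with or without the block) and the filtered TPM fits (0.21 and 0.28).

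The same replicate number did not pair tumors across genotypes (correlations of deviations −0.236, 0.103, −0.045 and −0.290). With the replicate block 1 of the 10 genes (0 higher), 2 partner genes (0 higher, 2 lower) and 70 genes in all (13 higher, 57 lower) were called.

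The direction turned for genes that were not called. Il1b was −0.05 with voom, −0.16 with the GC correction, −0.12 with block and GC, and −0.10 to 0.45 over the fits without 1 library. Il1rn was −0.22 and −0.26 with the GC correction, alone and with the block. Il6 was 0.025 with the block, 0.0362, 0.31 and 0.0362 in the TPM fits, and −0.66 to 0.058 without 1 library. Il1rap was −0.0525 and −0.0874, and Lifr −0.31 and −0.28, with the GC correction alone and with the block. Without 1 library Lifr ranged from −0.0535 to 0.50. Osmr was 0.0735, 0.091 and 0.0735 in the TPM fits, and −0.35 to 0.0114 without 1 library. Il18 was −0.0032 with voom. Ptges was −0.0216 with upper quartile scaling, −0.0425 with voom, and −0.0557 to 0.11 without 1 library. The cause of these changes was not tested.

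Depth limits low genes such as Il1a, Il6 and Cntfr: the floor in wild-type tumor 4 was 0.430 CPM. One clone and 1 time point stand behind the knock-out group.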

Other observations

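Some genes of the partner lists lay apart between genotypes without passing the threshold, and those given here were picked after their values were seen. Their differences with the GC trend removed were not examined. Casp1, which encodes the protease that matures IL-1β and IL-18, was at 12.3, 3.58, 8.24 and 4.30 CPM in wild-type and at 20.2, 15.4, 15.6 and 14.4 CPM in ΔAgo2 tumors (log2 difference 1.18, SE 0.37, edgeR adjusted p = 0.0908). Casp4, an inflammatory caspase that senses bacterial lipopolysaccharide inside cells, was at 6.90, 2.00, 5.28 and 1.58 CPM against 8.82, 11.9, 10.9 and 10.9 CPM (1.39, SE 0.42, edgeR adjusted p = 0.0872). In both, every ΔAgo2 tumor was above every wild-type tumor, whereas Il1b overlapped.

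On the prostanoid side, Ptgs1, the constitutive cyclooxygenase, had 213.5, 168.3, 177.8 and 149.5 CPM in wild-type and 241.0, 300.2, 278.6 and 258.7 CPM in ΔAgo2 tumors (log2 difference 0.60, SE 0.19, edgeR adjusted p = 0.0898). Ptgs2, its inducible counterpart, had a difference of the other sign, −0.66, that did not pass either. Among the STAT3 target genes, Il4ra, the receptor chain for IL-4 and IL-13, had the lowest adjusted p of its list, with 220.2, 312.3, 234.0 and 300.1 CPM in wild-type and 154.2, 146.9, 159.5 and 167.1 CPM in ΔAgo2 tumors (−0.76, SE 0.19, edgeR adjusted p = 0.0516).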
